A study of Mus musculus with 24 samples.

Results

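A set of 10 imprinted genes, among them Nnat, was followed through the transcriptome of dispersed mouse islet cells. They were taken by symbol from the deposited table as Nnat, Dlk1, Meg3, Peg3, Cdkn1c, Igf2, H19, Plagl1, Grb10 and Gnas. All 10 of these symbols were found among the 41549 genes listed, and 9 of the 10 passed the filter on low counts (H19 did not). The set was chosen by results of these same libraries, in which levels and palmitate changes of the genes had been seen. Their levels and changes are therefore given as a description, with no p-value.

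Islets came from wild-type C57BL/6NRj mice of both sexes, 12 to 14 weeks old. The dispersed cells were transfected with 50 pmol of a control antisense oligonucleotide (Ctr ASO) or of an ASO that blocks the 5′ fragment of tRNA Glu(CTC) (αGlu ASO). They were then kept in 0.75% BSA (BSA) or in 0.5 mM of the saturated fatty acid palmitate (PA). Both ASOs were combined with both media, which gave 4 groups named by ASO and medium. A group held 6 libraries, 3 of them from each of 2 batches. The study drew its 4 groups from the same animal in each replicate, but the labels do not say which libraries share one. What distinguishes the batches is not described beyond that word. An mRNA library does not measure the tRNA fragment, so the ASO could not be checked against its target here. Whole islet cell mixtures were sequenced, and fewer cells of a type and less RNA per cell cannot be told apart.

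An imprinted gene is read mainly from the copy inherited from one parent, a state set by DNA methylation laid down in the germ line. Such genes often lie in clusters, and many of them act on growth, metabolism and hormone secretion. In pancreatic β-cells the paternally expressed Nnat encodes neuronatin, a small endoplasmic reticulum membrane protein that helps signal peptidase to process preproinsulin. Gene counts do not separate the parental alleles, so total RNA is described throughout.

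Nnat lies at chr2:157560078-157562522 on the plus strand (GRCm38), wholly within the span of Blcap, which is read from the opposite strand. The promoter window of Nnat is shown because Nnat had the largest palmitate change of the 9 genes that passed the filter. Those of Meg3 and Plagl1 are shown beside it because they hold the same hexamer and their genes had no such change. Each RefSeq window (GRCm38.p6) runs from 250 bases before the annotated start to 50 bases after it. Capitals mark TGCCGC or its reverse complement GCGGCA, the core that the imprint-protecting factor ZFP57 recognises when methylated.
Nnat, chr2:157559828-157560127, plus strand: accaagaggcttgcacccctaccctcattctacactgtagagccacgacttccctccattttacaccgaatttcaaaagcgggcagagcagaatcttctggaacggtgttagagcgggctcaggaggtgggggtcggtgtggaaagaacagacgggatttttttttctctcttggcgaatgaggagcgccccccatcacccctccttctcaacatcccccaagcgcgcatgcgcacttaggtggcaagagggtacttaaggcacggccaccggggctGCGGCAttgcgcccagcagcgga
Meg3, chr12:109540746-109541045, plus strand: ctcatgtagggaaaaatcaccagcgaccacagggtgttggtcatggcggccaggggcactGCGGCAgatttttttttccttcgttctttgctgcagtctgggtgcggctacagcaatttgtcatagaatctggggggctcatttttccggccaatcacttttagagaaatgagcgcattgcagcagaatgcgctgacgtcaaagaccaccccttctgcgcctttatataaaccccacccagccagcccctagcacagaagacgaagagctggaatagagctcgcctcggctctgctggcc
Plagl1, chr10:13090582-13090881, plus strand: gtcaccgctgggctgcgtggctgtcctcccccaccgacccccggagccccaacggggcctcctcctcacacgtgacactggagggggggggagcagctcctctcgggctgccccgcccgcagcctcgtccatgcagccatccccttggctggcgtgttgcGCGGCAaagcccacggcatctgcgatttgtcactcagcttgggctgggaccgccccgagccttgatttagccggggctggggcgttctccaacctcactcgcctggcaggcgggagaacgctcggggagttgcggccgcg

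TGCCGC was found on either strand in 5 of the 16 windows matched to 8 of the 10 genes, in 1 window each of Nnat, Meg3, Plagl1, Grb10 and Igf2. Over all 32851 promoter windows 11.6% held it. The nuclear receptor half-site AGGTCA stood in 2 of the 16 windows, 1 of Meg3 and 1 of Igf2, against 16.3% of all windows, and shared no base with a TGCCGC match. Both matches are descriptions of letters, and methylation was not measured.

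To place the genes on one scale, levels were compared as TPM (a level per transcript length, scaled to the same total in each library). Peg3, a paternally expressed zinc finger gene, was highest at 521 ± 67.7 TPM (mean ± SD, n = 24) and ranked 120 among all listed genes. Gnas, which encodes the stimulatory G protein α-subunit, followed at 267 ± 27.8 TPM, and the maternally expressed long non-coding RNA Meg3 at 258 ± 34.3 TPM. The levels of Gnas and Meg3 overlapped within 1 SD. Nnat had 40.2 ± 19.1 TPM and Grb10, an adaptor that restrains insulin and IGF receptor signalling, 28.3 ± 4.69 TPM. This order depended on the medium. Nnat stood above Grb10 in 12 of 12 BSA libraries and in 2 of 12 PA libraries.

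Igf2, the growth factor gene, had 6.38 ± 3.81 TPM and overlapped with Plagl1, a zinc finger transcription factor gene, at 5.15 ± 0.993 TPM. Dlk1, which encodes a membrane protein of the Notch ligand family, had 2.68 ± 0.447 TPM and overlapped with Cdkn1c at 1.43 ± 0.898 TPM. Cdkn1c encodes the cyclin-dependent kinase inhibitor p57. The maternally expressed non-coding RNA H19 had a mean of 0.0797 TPM. Peg3, Meg3 and Gnas together took between 95.8% and 97.9% of the counts of the 10 genes in each library.

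**Figure D1:**
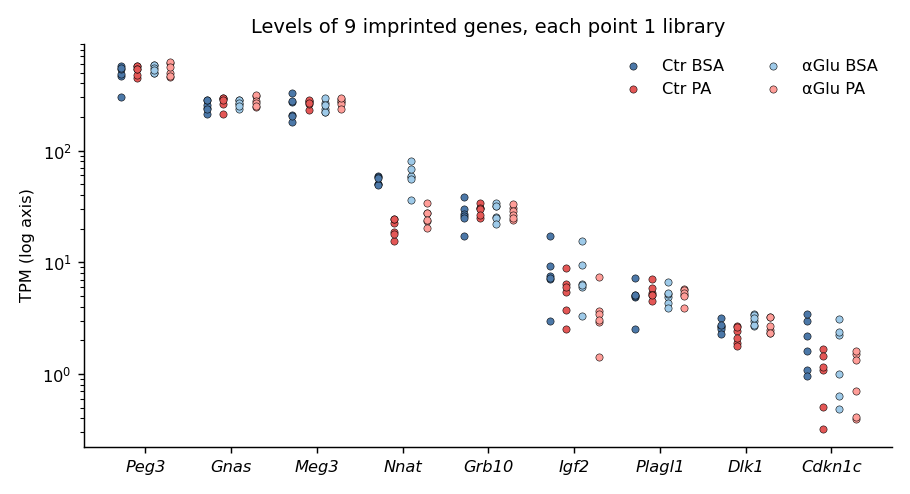
Levels of the 9 genes that passed the filter in the 24 libraries, in TPM on a log axis, with 1 point per library coloured by group. Nnat separates into BSA and PA libraries, whereas Peg3, Gnas, Meg3, Grb10 and Plagl1 overlap between the 4 groups.

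Palmitate was then compared with BSA within each ASO. Nnat was lower with PA under both ASOs. In Ctr BSA it ranged from 31.0 to 43.9 CPM (counts scaled to library size, with TMM factors) with a median of 38.1. In Ctr PA it ranged from 9.73 to 15.9 CPM with a median of 13.5, so no Ctr PA library reached the lowest Ctr BSA library. Non-overlapping groups with lower values in PA were found for 2.86% of the 15916 genes tested. The log2 fold change of Nnat was -1.47 ± 0.13 (SE, n = 6 against 6), a 2.77-fold lower level.

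Under the αGlu ASO the same separation was seen. Nnat ranged from 24.5 to 48.1 CPM with a median of 38.7 in αGlu BSA. It ranged from 13.8 to 20.5 CPM with a median of 16.7 in αGlu PA, and the groups again did not overlap (3.95% of genes tested had lower, non-overlapping PA values). The log2 fold change was -1.18 ± 0.13, a 2.27-fold lower level. Within batch 1 the log2 fold changes were -1.33 for Ctr and -1.21 for αGlu, and within batch 2 they were -1.62 and -1.16. Leaving out any 1 library kept them between -1.53 and -1.40 for Ctr and between -1.28 and -1.11 for αGlu.

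**Figure D2:**
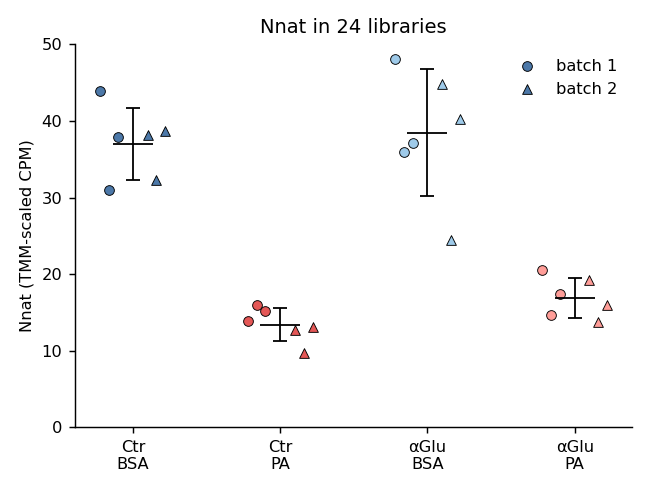
Nnat in each of the 24 libraries, in TMM-scaled CPM by group, with circles for batch 1 and triangles for batch 2 and bars for the mean ± SD (n = 6). All 12 PA libraries lie at 20.5 CPM or less, and all 12 BSA libraries at 24.5 CPM or more.

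Because Nnat lies inside Blcap, it was asked whether the host gene moved as well. The library kit keeps strand, but whether the counting used it is not stated, so reads of the 2 genes may not be fully separated. Blcap had 68.6 ± 7.21 CPM in Ctr BSA and 73.9 ± 9.73 CPM in Ctr PA (log2 fold change 0.11 ± 0.06). Under αGlu it had 69.7 ± 7.97 CPM with BSA and 71.5 ± 5.09 CPM with PA (0.04 ± 0.06). Neither change of Blcap passed the threshold, and both were opposite in sign to those of Nnat.

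Cdkn1c was a low gene, with 7 to 75 counts per library. It ranged from 0.689 to 2.48 CPM (median 1.63) in Ctr BSA and from 0.247 to 1.2 CPM (median 0.837) in Ctr PA. It ranged from 0.355 to 2.13 CPM (median 1.12) in αGlu BSA and from 0.305 to 1.12 CPM (median 0.728) in αGlu PA. The BSA and PA groups overlapped under both ASOs. The log2 fold change was -1.0 ± 0.28 for Ctr and -0.66 ± 0.28 for αGlu. Within batches it was -1.19 and -0.81 for Ctr, and -0.78 and -0.50 for αGlu.

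Igf2 spread widely within groups. It ranged from 6.07 to 34.5 CPM (median 16.8) in Ctr BSA and from 5.0 to 17.3 CPM (median 11.6) in Ctr PA. In αGlu BSA it ranged from 7.36 to 30 CPM (median 12.8), and in αGlu PA from 3.04 to 14.6 CPM (median 6.65). The groups overlapped in both comparisons. The log2 fold change was -0.65 ± 0.29 for Ctr and -1.06 ± 0.30 for αGlu, and within batches it was -0.86 and -0.44 for Ctr, and -1.15 and -0.96 for αGlu.

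Igf2 cannot be read alone. The gene model Gm49394 (chr7:142650769-142669942, minus strand) covers nearly all of Igf2 (chr7:142650766-142666816) on the same strand, and how shared reads were divided is not stated. Gm49394, named after its values were seen, fell from 27.8 to 54.2 CPM in Ctr BSA to 4.26 to 15 CPM in Ctr PA, with a log2 fold change of -2.25 ± 0.14. Under αGlu it went from 21.7 to 61.3 CPM to 7.10 to 16.7 CPM (-1.89 ± 0.13). Neither pair of groups overlapped. The summed level of both models went from 59.3 ± 20.9 CPM with BSA to 20.1 ± 7.51 CPM with PA under Ctr, and from 57.2 ± 20.8 to 18.8 ± 7.35 CPM under αGlu. Igf2 held a median of 29.3% of that sum in Ctr BSA and 54.6% in Ctr PA, and 25.7% in αGlu BSA and 38.9% in αGlu PA.

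Markers of fibroblasts and acinar cells fell with PA under both ASOs, and most markers of macrophages did so under Ctr. The fibroblast and stellate cell list, which includes Col1a1, Pdgfra and Pdgfrb, summed to between 166 and 632 CPM in Ctr BSA and to between 15.1 and 82.2 CPM in Ctr PA. In αGlu BSA the sum lay between 107 and 1272 CPM and in αGlu PA between 14.7 and 188 CPM. With PA, 8 of the 9 markers tested fell under Ctr and 7 of 9 under αGlu, and none of the 10 listed was at 0 in any group. Of the acinar list, 5 of 7 tested markers fell under Ctr and 4 of 7 under αGlu, and of the macrophage list 6 of 9 and 1 of 9. The difference between the ASOs in this change, fitted as an interaction, was called for 0 of 9 macrophage markers. The macrophage sum lay between 79.2 and 370 CPM in Ctr BSA, highest in library S21, and between 85.6 and 130 CPM in Ctr PA. Of the ductal list 2 of 8 fell under each ASO. None of the 10 endothelial and 8 Schwann and glial markers was called under either ASO. Of the β-cell list, 3 of 10 rose and 3 fell under Ctr, and 3 rose and 2 fell under αGlu. Of the list of the other endocrine cells (alpha, delta and PP), 3 of 10 fell under Ctr and 1 of 10 under αGlu. These counts stand beside 14.5% and 14.2% of all genes called lower. The part of these cells in the values of Igf2, Cdkn1c and Nnat was not tested.

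**Figure D3:**
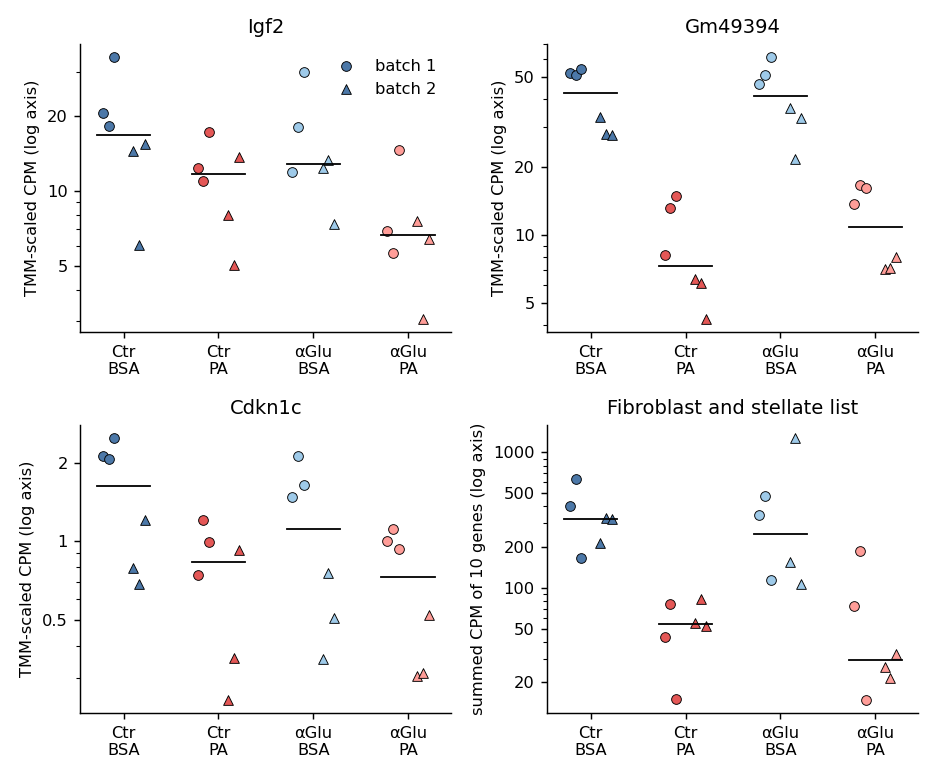
Igf2, the overlapping model Gm49394, Cdkn1c (TMM-scaled CPM, log axes) and the summed fibroblast and stellate list (CPM of 10 genes, log axis) by library and group, with circles for batch 1, triangles for batch 2 and bars for the group median. Gm49394 separates BSA from PA under both ASOs and the cell list under Ctr, whereas Igf2 and Cdkn1c overlap between media and Cdkn1c has a lower mean in batch 2.

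None of the other 6 genes that passed the filter passed the threshold between media, and Dlk1 had the largest change of them. Dlk1 went from 5.68 ± 0.947 to 4.53 ± 0.558 CPM under Ctr (log2 fold change -0.32 ± 0.13) and from 6.15 ± 0.804 to 5.48 ± 1.13 CPM under αGlu (-0.17 ± 0.13). Its groups overlapped. Meg3 had log2 fold changes of 0.07 ± 0.08 and 0.13 ± 0.08, and Peg3 of 0.07 ± 0.08 and -0.00 ± 0.08. For Plagl1 they were 0.11 ± 0.14 and 0.03 ± 0.14, for Grb10 0.07 ± 0.08 and -0.01 ± 0.08, and for Gnas 0.04 ± 0.09 and 0.08 ± 0.09. Gnas also overlaps Nespas (listed in the table as Gnasas1) and Gm20721 on the opposite strand, so its counts may include theirs. For Peg3 the 95% interval of the log2 fold change ran from -0.09 to 0.23 under Ctr and from -0.16 to 0.15 under αGlu. Changes of the size seen for Nnat lay outside these intervals.

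H19 was at or near 0. It had 0 counts in 17 of 24 libraries and 44 counts in all, of which 30 came from library S18 of αGlu BSA. A count of 0 allows up to 3 counts, or 0.0857 to 0.165 CPM depending on the library. The same library had the highest fibroblast and stellate sum, 1272 CPM. The other 23 libraries held 14 H19 counts together.

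Counted against the threshold of adjusted p below 0.05, 2 of 9 genes were called with PA under Ctr (Nnat and Cdkn1c, both lower) and 2 of 9 under αGlu (Nnat and Igf2, both lower). Of all genes tested, 30% were called under Ctr and 28.5% under αGlu, with 14.5% and 14.2% called lower and 15.5% and 14.4% called higher. Nothing is read from the members' counts, since measured values helped to choose them. Cdkn1c in αGlu and Igf2 in Ctr were in turn called when certain single libraries were left out. The difference between the ASOs in the palmitate change, fitted as an interaction, was called for 0 of 9 (0.0% of all genes). The study states a fold above 2 with p below 0.05. It describes Benjamini-Hochberg correction for its differential expression, but does not say whether that p is the corrected one. With the unadjusted p, Nnat alone passed under Ctr (5.91% of all genes) and Nnat and Igf2 under αGlu (5.57%).

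**Figure D4:**
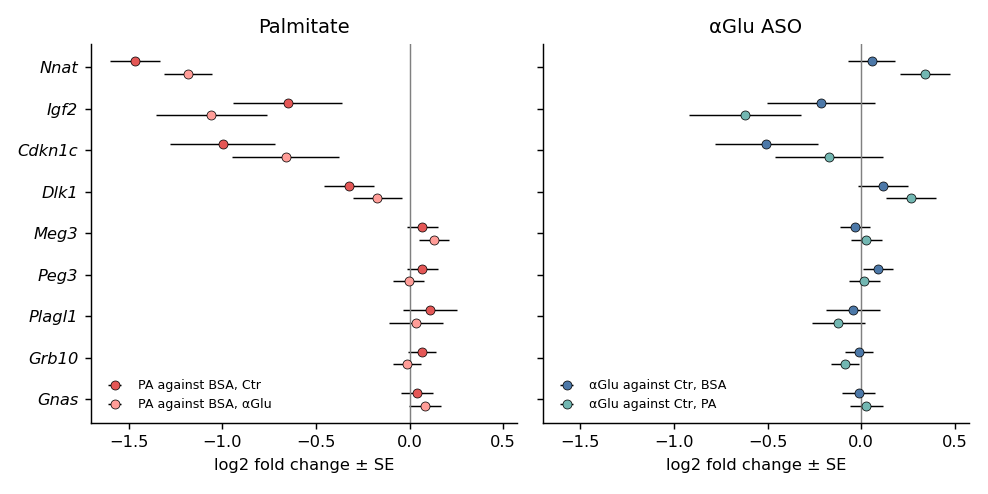
log2 fold changes ± SE (x axis) of the 9 genes that passed the filter, for PA against BSA under each ASO (left) and for αGlu against Ctr in each medium (right), with 6 libraries in each group. Nnat, Igf2 and Cdkn1c lie left of 0 for PA under both ASOs, and the values for αGlu lie between -0.62 and 0.34.

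The αGlu ASO was compared with the Ctr ASO within each medium. Nnat had a log2 fold change of 0.06 ± 0.13 in BSA and 0.34 ± 0.13 in PA. In PA its 6 αGlu libraries ranged from 13.8 to 20.5 CPM and its 6 Ctr libraries from 9.73 to 15.9 CPM, so the groups overlapped. The palmitate change of Nnat was smaller under αGlu by 0.28 ± 0.18 on the log2 scale, with a 95% interval from -0.07 to 0.64. Igf2 had log2 fold changes of -0.21 ± 0.29 and -0.62 ± 0.30, and Cdkn1c of -0.51 ± 0.27 and -0.17 ± 0.29. For the other 6 genes they lay between -0.12 and 0.27.

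By edgeR's adjusted p, 0 of 9 genes were called for the αGlu ASO in BSA and 0 of 9 in PA, beside 0.0% of all genes tested in each. At an unadjusted edgeR p below 0.05 the counts were 0 of 9 in BSA, 2 of 9 in PA (all genes 2.9% and 3.38%) and 0 of 9 for the interaction (all genes 2.09%). At an unadjusted DESeq2 p below 0.05 they were 0, 1 and 0 of 9, beside 470, 566 and 340 of all 15916 genes tested. By a fold above 2 with an unadjusted p below 0.05 none of the 9 passed, beside 0.785% of all genes in BSA, 0.942% in PA and 0.653% for the interaction. By its adjusted p DESeq2 also called 0 of 9 in each, while over all genes it called 8 in BSA, 30 in PA and 0 for the interaction.

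The 2 batches were compared next, across the 4 groups. Cdkn1c was lower in batch 2, at 0.582 ± 0.296 CPM against 1.49 ± 0.58 CPM in batch 1 (SD, n = 12 each), a log2 fold change of -1.33 ± 0.20. Igf2 was also lower, at 9.39 ± 4.19 against 16.7 ± 8.59 CPM (-0.79 ± 0.21). Grb10 was lower by a smaller amount (-0.18 ± 0.05) and Meg3 was higher (0.25 ± 0.06). Nnat differed by -0.15 ± 0.09. Thus 4 of 9 genes passed the threshold between batches, beside 51.5% of all genes tested (26.1% higher and 25.4% lower in batch 2). By a fold above 2 with an unadjusted p below 0.05, 1 of 9 did (Cdkn1c), beside 6.38%.

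Cell type markers differed between batches too. The acinar list summed to between 2482 and 17210 CPM in batch 1 and to between 189 and 521 CPM in batch 2, with 7 of 7 tested markers lower in batch 2. Of the ductal list, 6 of 8 were lower and 1 was higher, and its sum went from a range of 1209 to 1912 CPM to one of 467 to 1027 CPM. Of the β-cell list 10 of 10 were higher in batch 2, and of the list of alpha, delta and PP cells 7 of 10 were lower and 1 was higher. Of the endothelial list 5 of 10 were lower. Of the macrophage list 4 of 9 and of the Schwann and glial list 2 of 8 were higher, and of the fibroblast and stellate list 0 of 9 were called. These counts stand beside the 26.1% and 25.4% of all genes given above. No marker of these lists found in the table was at 0 in either batch. Their part in the batch differences of Cdkn1c, Igf2, Grb10 and Meg3 was not tested.

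To see whether neighbours of one imprinted locus varied together, log2 CPM values were set against the mean of their group and batch, and the deviations were correlated over 24 libraries. H19 was too low for the Igf2 locus, which left 4 pairs, with two-sided permutation tests and Benjamini-Hochberg adjustment over the 4. The permutations treat the 24 libraries as separate, and p-values are too small where libraries of 1 animal deviate together. The r within each group of 6 is therefore given too. Each test asks only whether r differs from 0, and pairs of genes from different loci were not tested beside them. Nnat and Meg3, which lie on different chromosomes, had r = 0.69 on this measure. The tests therefore do not tell neighbours from other genes. Peg3 and the neighbouring Usp29, which lies next to it on the opposite strand, had r = 0.78 (permutation p = 0.00105, adjusted 0.00402) and rho = 0.71 (permutation p = 0.00345, adjusted 0.0069). The correlation was 0.90 in batch 1, 0.66 in batch 2 and 0.71 without the 2 libraries farthest from the median of Peg3. Within the 4 groups it lay between 0.48 and 0.96.

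Meg3 and Rian, non-coding RNAs of the same maternally expressed cluster, had r = 0.55 (permutation p = 0.00201, adjusted 0.00402) and rho = 0.69 (permutation p = 0.00156, adjusted 0.00624). Their r was 0.45 in batch 1, 0.63 in batch 2 and 0.54 without the 2 farthest libraries, and it lay between 0.48 and 0.88 within groups. Nnat and Blcap had r = 0.45 (permutation p = 0.0335, adjusted 0.0447) and rho = 0.49 (permutation p = 0.0327, adjusted 0.0436). Their r was 0.65 in batch 1, 0.31 in batch 2 and 0.60 without the 2 farthest libraries. Within groups it was 0.99 in Ctr BSA and between 0.31 and 0.46 in the others.

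Dlk1 and Meg3, which share a locus but are read from opposite parental copies, had r = 0.17 (permutation p = 0.556, adjusted 0.556) and rho = 0.22 (permutation p = 0.433, adjusted 0.433). The within-batch values pointed in opposite directions, with r = 0.90 in batch 1 and -0.37 in batch 2. Without the 2 farthest libraries the pooled r was 0.18, and within groups it lay between -0.70 and 0.89. The difference in r between batches was not tested, and each batch holds 12 libraries, of which some share an animal.

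**Figure D5:**
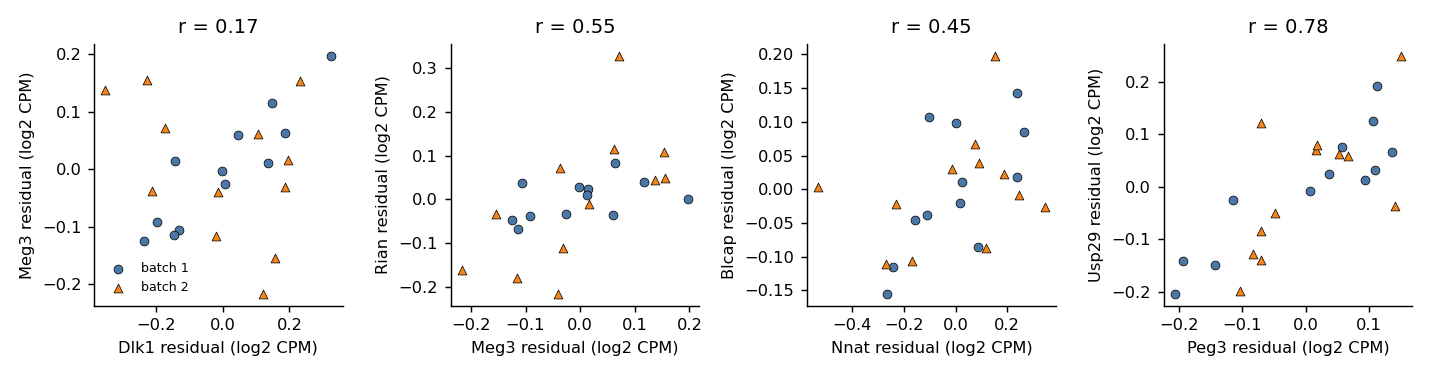
Deviations of log2 CPM from the mean of the group and batch for 4 pairs of neighbouring imprinted genes, with 1 point per library (24 in all), circles for batch 1 and triangles for batch 2. Peg3 and Usp29 lie close to a line (r = 0.78), whereas Dlk1 and Meg3 do so in batch 1 only (r = 0.90, against -0.37 in batch 2).

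The genes most like Nnat were sought by Pearson's r of log2 CPM over the 24 libraries, among 11584 tested genes with a mean of at least 100 counts. They were Npy (r = 0.94), Lrp8 (0.92), Per2 (0.92), Zfp462 (0.92) and Gse1 (0.91). Npy encodes neuropeptide Y and Per2 a circadian clock repressor. These correlations share libraries, groups and depth. Npy went from a mean of 31.3 to 11.3 CPM with PA under Ctr and from 34.2 to 10.5 CPM under αGlu. Among the other genes described here, Igf2 had r = 0.53 and Dlk1 0.46, and Peg3, Gnas, Grb10, Meg3 and Plagl1 lay between -0.30 and -0.07. Cdkn1c and H19 had fewer counts and were not compared.

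Signal peptidase, with which neuronatin works, was examined through the 5 genes of its complex. This list was chosen with earlier results of these data known, as were the imprint maintenance and wider imprinted lists below. The p-values given for genes of these lists are therefore not an independent test. With PA under Ctr, 5 of 5 rose, beside 15.5% of all genes tested. Spcs2 went from 197 to 256 CPM (log2 fold change 0.39 ± 0.05, edgeR adjusted p = 2.66e-06) and the catalytic subunit gene Sec11c from 124 to 161 CPM (0.40 ± 0.07, edgeR adjusted p = 0.000112). Under αGlu, 4 of 5 rose (14.4% of all genes), with 0.32 ± 0.05 for Spcs2 (edgeR adjusted p = 3.46e-05), and Spcs1 did not pass. These rises were opposite in direction to the change of Nnat. The 5 genes were also higher in batch 2, as were 26.1% of all genes, by 0.26 to 0.71 on the log2 scale.

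Of 9 genes that maintain imprints, 3 fell with PA under Ctr and 4 under αGlu and none rose. That is 33.3% and 44.4%, beside 14.5% and 14.2% of all genes called lower and 30% and 28.5% called in either direction. Setdb1, a histone methyltransferase, had log2 fold changes of -0.26 ± 0.05 and -0.25 ± 0.05, and its co-repressor Trim28 of -0.28 ± 0.06 and -0.26 ± 0.06. The maintenance methyltransferase Dnmt1 had -0.27 ± 0.05 and -0.29 ± 0.05. The insulator protein gene Ctcf fell under αGlu (-0.14 ± 0.04) and did not pass under Ctr, and the difference between the ASOs was not called by the interaction test. Zfp57 was low, with a median of 1.13 CPM over 24 libraries, and had log2 fold changes of -0.01 ± 0.30 and 0.02 ± 0.28.

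A wider set of 55 imprinted genes besides these 10 was then counted, of which 54 were listed in the table and 41 passed the filter. With PA under Ctr, 5 rose and 6 fell, or 26.8% of the 41 beside 30% of all genes tested, and their median log2 fold change was 0.04 beside 0.01 for all genes. Under αGlu, 3 rose and 4 fell, or 17.1% beside 28.5%. Of the 19 genes listed as paternally expressed, 2 rose and 2 fell under Ctr and 1 rose and 1 fell under αGlu. Of the 22 listed as maternally expressed, 3 rose and 4 fell under Ctr and 2 rose and 3 fell under αGlu. Imprinting and parent were assigned to this set from general knowledge. They may not hold in islet cells, where no allele was measured.

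The paraoxonase gene Pon3 rose from 38 to 60.8 CPM under Ctr (log2 fold change 0.68 ± 0.08, edgeR adjusted p = 5.99e-07) and from 40.6 to 59.8 CPM under αGlu (0.56 ± 0.08, edgeR adjusted p = 6.69e-06). Rasgrf1, a guanine nucleotide exchange factor gene, rose by 0.27 ± 0.06 and 0.28 ± 0.06 (edgeR adjusted p = 0.00178 and 0.00145). Osbpl5, an oxysterol-binding protein family gene, had -0.37 ± 0.07 and -0.32 ± 0.07 (edgeR adjusted p = 0.000228 and 0.000879). The non-coding RNA Peg13 had -0.20 ± 0.05 and -0.22 ± 0.05 (edgeR adjusted p = 0.00417 and 0.00252). Commd1 rose by 0.37 ± 0.10 under both ASOs. Cd81 fell under both, with -0.30 ± 0.09 and -0.34 ± 0.09. Nap1l5 rose under Ctr (0.25 ± 0.06), and its 0.15 ± 0.06 under αGlu did not pass. The potassium channel gene Kcnk9 was low, and went from a mean of 1.30 to 0.437 CPM under Ctr (-1.54 ± 0.35, edgeR adjusted p = 0.00171). Under αGlu it went from 1.25 to 0.638 CPM (-0.99 ± 0.34, edgeR adjusted p = 0.0297), a call that was lost without any 1 of 5 libraries (S2, S10 and S14 of αGlu BSA, S12 and S20 of αGlu PA).

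None of the 41 was called for the αGlu ASO in either medium or for the interaction by edgeR or DESeq2. At an unadjusted p below 0.05 both tools had 1 of 41 in BSA and 0 of 41 in PA and for the interaction. In BSA the smallest edgeR p belonged to Kcnq1ot1, a paternally expressed non-coding RNA, at 36.2 against 47.4 CPM (-0.37 ± 0.16). That value was -0.59 in batch 1 and -0.12 in batch 2, and -0.13 without library S1 of Ctr BSA. Copg2, a coatomer subunit gene, followed with 0.11 ± 0.06. In PA the smallest edgeR p belonged to Mest, at 13.3 against 16.9 CPM (-0.42 ± 0.24), which was -0.18 without library S7 of Ctr PA. Dcn followed with 1.91 ± 1.08 and had the smallest DESeq2 p. For the interaction Copg2 had -0.17 ± 0.09 and Gnasas1, which overlaps Gnas, -0.53 ± 0.30.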

How the data were processed

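The mRNA of dispersed mouse islet cells was sequenced in 24 libraries (stranded mRNA kit). Read annotation and normalization were done by the authors in the QIAGEN RNA-seq Analysis Portal 5.1, on GRCm38 per the labels. For the aligner, the annotation release and the strand setting: not given in the sources used here. Gene counts, as deposited, are whole numbers, and the authors' TPM values were used for levels per length. The deposited RPKM and CPM columns were not used. Totals ranged from 18214719 to 35001979 counts per library, and low genes such as Cdkn1c rest on few counts. The limit given for a count of 0 covers counting error only.

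Groups and batches were taken from the sample records. The study describes the primary-cell replicates as preparations from different organisms, with all groups of a replicate from 1 animal. Counts were filtered with filterByExpr (15916 genes kept), scaled by TMM and fitted with edgeR 4.0.16 (quasi-likelihood F-test, 4 groups plus batch) over all 24 libraries, with Benjamini-Hochberg adjustment over all genes tested and a threshold of 0.05. SE of log2 fold changes and 95% intervals (1.96 SE) came from that fit and include the spread between libraries. The script was tested on simulated data. Correlations of deviations used 100000 permutations within group and batch. Positions came from GENCODE M21 (GRCm38), promoters from RefSeq (GRCm38.p6). H19 and Cdkn1c were not matched there. Nespas was matched by its Ensembl identifier to the symbol Gnasas1 of the table. Tools were limma 3.58.1, DESeq2 1.42.0, R 4.3.3 and scipy 1.17.1.

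The 10 genes, the lists and the tests were chosen with earlier results of these data known. Named genes were the 10, up to 3 raised and 3 lowered other imprinted genes of smallest p per comparison (up to 2 where none passed), the imprint maintenance and signal peptidase genes, and the 5 genes of highest r with Nnat. Alternatives were DESeq2, upper-quartile scaling, no filter, a filter of 10 counts in 12 libraries, no batch term, each batch alone, the 2 compared groups alone, each library left out, and a fold above 2 with p below 0.05, as the study states it, taken here as the unadjusted p.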

Additional observations from a re-analysis of the deposited data

Results flagged for a closer look

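Of the 10 genes, 2 had a library far from the other 5 of its group, judged by the gap to its nearest neighbour over the whole range of the group. Chance gives this in about 1 of 20 groups, and 40 were checked. Plagl1 stood high in library S23 of Ctr PA, at 21.7 CPM from 606 counts, where the other 5 lay between 13.2 and 16.3 CPM. Plagl1 stood low in library S12 of αGlu PA, at 10.4 CPM from 291 counts, where the others lay between 14.2 and 15.5 CPM.

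The other 4 cases were all H19, which had hardly any counts. It had 1.19 CPM from 30 counts in library S18 of αGlu BSA, where the others had at most 0.216 CPM. In library S17 of Ctr BSA it had 0.138 CPM from 3 counts, in library S16 of αGlu PA 0.0763 CPM from 2 counts, and in library S15 of Ctr PA 0.0353 CPM from 1 count. The values of S15 and S16 are below what a count of 0 allows.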

How the results depend on the processing

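The calls of Nnat with PA held under both ASOs in all alternatives run. Nnat was chosen with its values in these same libraries known. The repeated calls therefore describe the processing only and lend the change no support. The number of the 10 genes called with PA under Ctr was 2, and it was 1 (Nnat) with no batch term, in batch 2 alone and by a fold above 2 with an unadjusted p below 0.05. Under αGlu it was 2, and it was 1 (Nnat) with no batch term and in either batch alone, 3 with the 2 groups alone (Cdkn1c added) and 3 with no filter (H19 added, on few counts). Between batches it was 4, and 1 (Cdkn1c) by a fold above 2 with an unadjusted p below 0.05. Leaving out 1 library gave 2 to 3 under Ctr, 2 to 3 under αGlu, 4 to 5 between batches and 0 to 0 for both ASO comparisons and the interaction. Dlk1 under Ctr was called without S21 (log2 fold change -0.38) or S3 (-0.38), Igf2 under Ctr without S17 (-0.79) or S23 (-0.85), Cdkn1c under αGlu without S23 (-0.66) or S14 (-0.77), and Peg3 between batches without S12 (0.14).

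Of the 41 other imprinted genes, 11 were called with PA under Ctr, against 7 with no batch term, 2 in batch 1 alone and 5 in batch 2 alone. Under αGlu 7 were called, against 4 with no batch term, 2 in batch 1 alone and 11 with the 2 groups alone. Leaving out 1 library gave 10 to 13 under Ctr, 6 to 10 under αGlu, 26 to 29 between batches and 0 to 0 otherwise. Over all genes the PA calls under Ctr went from 4772 to 2312 with no batch term, 2033 in batch 1 alone and 1833 in batch 2 alone, and those under αGlu from 4543 to 2271, 1644 and 1902. Single batches hold 12 of the 24 libraries. The cause of the other shifts was not tested. Group levels moved by less than 1 SD under upper-quartile scaling, and 3 locus pairs passed under both scalings and with rank correlation. No paired analysis was run, because the library numbers S1 to S24 are not shared between groups and no label says which libraries came from 1 animal. The numbers follow one another in sets of the 4 groups, but a pairing by this order would be a guess. Differences between animals therefore stay in the spread of each group.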

Other observations

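Imprinted genes outside the 10 were compared between batches as well. Of the 41 tested, 18 were higher and 8 lower in batch 2, or 63.4% beside 51.5% of all genes tested. Whether these shares differ was not tested. Kcnq1, a potassium channel gene, was lower in batch 2 by a log2 fold change of -2.16 ± 0.20, Mest, a paternally expressed hydrolase-like gene, by -1.67 ± 0.17 and Cd81, a tetraspanin gene, by -0.68 ± 0.06. Peg13 (0.40 ± 0.04), Pon3 (0.54 ± 0.05) and Nap1l5 (0.36 ± 0.04) were higher. Zfp57 was lower in batch 2 (-1.49 ± 0.20). The acinar and ductal lists were lower in the same batch, and their part in these values was not tested.

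Dcn, which encodes the matrix proteoglycan decorin and was named here after its values were seen, went from a median of 1.26 to 0.259 CPM with PA under Ctr (log2 fold change -3.41 ± 1.10). The call was lost without library S21 of Ctr BSA. Under αGlu the log2 fold change was -1.55 ± 1.01. The fibroblast and stellate list fell in the same comparisons.

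The genes whose deviations from the group and batch means were most like those of Nnat were Rpa1 (r = 0.83), Lingo1 (0.81), Mtmr7 (0.80), Msh5 (0.78) and Sfrp5 (0.78), over 24 libraries and 11584 genes. None of them was among the 5 genes most like Nnat in total level. Meg3, which did not move with PA, had r = 0.69 with Nnat on this measure.

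Igf2 had an SD within group and batch of 0.62 on the log2 scale, where 2337 genes within 1.5-fold of its level had a median of 0.17. Nnat had 0.26, where 2815 such genes had a median of 0.14.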
